A study of Rattus norvegicus with 22 samples.

Results

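The Hox genes are the homeobox transcription factors of the HoxA, HoxB, HoxC and HoxD clusters, and their levels in the rat ventral cervical spinal cord are described here by cluster and by paralog group. Members were every gene whose symbol is Hox followed by a cluster letter and a paralog number. The rule found 39 symbols on 44 of the 32883 genes of the count table, because some HoxA symbols, such as Hoxa11 with 3, appeared under more than 1 gene identifier. The rule used no measured value.

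The study asked what loss of the gonads does to gene expression in spinal tissue that drives breathing and forelimb movement. RNA was sequenced from young adult Sprague-Dawley rats aged 3 to 4 months in 4 groups, namely 5 intact males, 5 gonadectomized (GDX) males whose testes had been removed, 6 intact females and 6 ovariectomized (OVX) females. The operated rats were sampled 2 weeks after surgery and the intact rats were age-matched with no operation described. The tissue was the ventral part of segments C3 to C6, taken from each rat after its blood had been flushed out with cold saline.

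Each library held between 12371756 and 17571887 counts assigned to genes, and the group medians were 14196615 for the intact and 15645521 for the GDX males, and 14640726 for the intact and 14766802.5 for the OVX females. Levels are given as CPM, the counts of a gene relative to the library total scaled with TMM factors, and at these depths 3 counts in a library corresponded to between 0.167 and 0.241 CPM. The gene with the most counts took 12.3% to 17.9% of a library. Replicate libraries of each group differed by more than counting noise, with a chi-square per degree of freedom of at least 4.97, so none was counted as a repeat of another. The libraries belonged to a short or a long class by the average length of the sequenced fragments given in the study's methods. All 5 GDX males and all 6 OVX females were of the short class, as were intact males 2 and 5 and intact females 1 and 4, while the other 3 intact males and 4 intact females were of the long class. Gonadectomy and fragment class therefore overlapped in this design, and where class values stand beside a result the part of class in it was not tested.

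Hox genes encode homeodomain proteins that give cells their position along the head to tail axis, and the order of the genes on the chromosome matches the order of their anterior borders in the embryo. Low paralog numbers begin in the hindbrain, middle numbers begin at cervical and brachial levels, and high numbers are used at thoracic, lumbar and sacral levels. In the ventral cord they set the identity of motor columns, with Hox5 proteins needed by phrenic motor neurons, Hox6 and Hox8 proteins by motor neurons of the forelimb, and Hoxc9 by thoracic motor columns, and most of them remain transcribed in adult spinal neurons.

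The tissue label was checked against marker genes. In the 5 intact males the motor neuron gene Slc18a3, the vesicular acetylcholine transporter, was at 55.7 ± 13.4 CPM (SD), the heavy neurofilament gene Nefh was at 4895.8 ± 927.5, and Chat, the acetylcholine-synthesizing enzyme, was at 43 ± 6.36. The forebrain gene Emx1 had 6 counts over all 22 libraries, and Otx2, a gene of forebrain and midbrain, had 0, but Neurod6 had 351, or 1.15 ± 0.283 CPM in intact males, En2 had 127 and Tbr1 had 41, so the markers of that list were not all absent. Of the dorsal horn genes Lmx1b and Tlx3 had 131 and 33 counts in all, Skor2 had 240 and Gpr83 had 1234, or 2.39 to 5.65 CPM, so dorsal horn transcripts were present. En1, placed with the midbrain markers, was at 4.86 ± 0.242 CPM in intact males (n = 5), and it also marks V1 interneurons of the ventral cord.

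Hox transcripts made up between 0.0187% and 0.0255% of the counts of a library, or 2525 to 4354 counts. Summed over the members, intact males were at 200.3 ± 20.8 CPM and GDX males at 207.3 ± 14 (SD, n = 5 each), and intact females at 228.4 ± 11.6 and OVX females at 220.5 ± 22 (n = 6 each). The group ranges of this sum overlapped, and no test was made on it. Detection was counted with CPM on library totals without TMM factors. Of the 44 genes, 17 reached 1 CPM in all 22 libraries and 23 reached it in none, and 13 had no count anywhere. With TMM factors 17 genes also reached 1 CPM in all libraries. With a level of 0.5 CPM on the totals without them the count was 18, the added gene being Hoxd9, whose lowest value with TMM factors was 0.495 CPM.

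Paralog groups 1 to 9 held 70697 of the 70792 Hox counts, and groups 10 to 13, the genes of lumbar and sacral levels and of the tail, held 95 counts on 14 genes, none of which reached 1 CPM in any library. The other 9 of the 23 genes that reached it in none were 8 HoxA entries and Hoxb1, and over all groups 13 of the 16 HoxA entries reached it in none. Hoxc10, a gene of lumbar motor neurons, supplied 67 of the 95 counts of groups 10 to 13 with at most 10 in a library. Hoxc13 had 12 counts, Hoxc11 had 10, Hoxd10 had 4 that all lay in OVX female 2, and Hoxb13 had 2. Hoxa10, Hoxa13, Hoxc12, Hoxd11, Hoxd12, Hoxd13 and all 3 entries of Hoxa11 had no count, where 3 counts would be 0.167 to 0.241 CPM depending on the library.

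**Figure D1:**
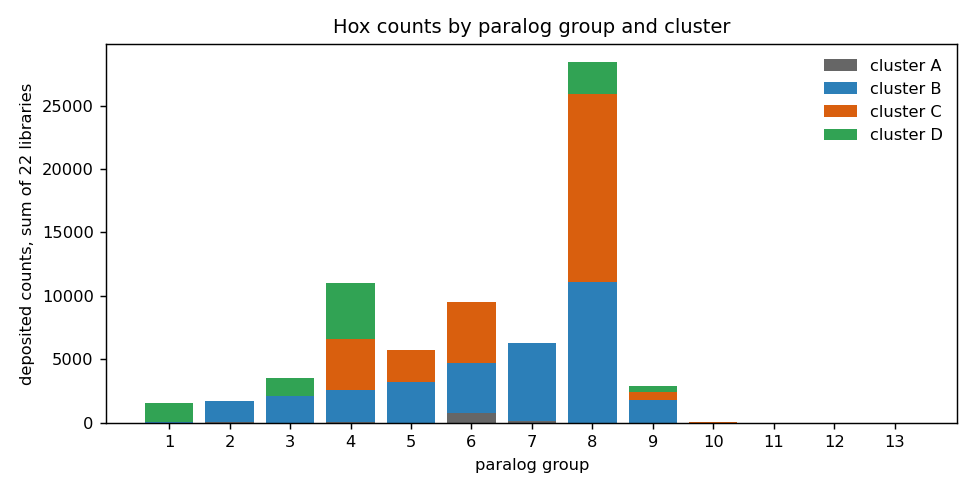
Hox counts summed over the 22 libraries for each paralog group, on the horizontal axis, with stacked bars colored by cluster. The bars are near 0 past paralog group 9, and groups 10 to 13 together held 95 of 70792 counts.

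Paralog group 8 took the largest part of the Hox counts, 39.8% ± 5.38 (SD, n = 22 rats), followed by group 4 with 15.8% ± 2.66, group 6 with 13.5% ± 1.12, group 7 with 8.91% ± 1.2 and group 5 with 8.21% ± 1.48. Group 3 took 5.02% ± 0.718, group 9 took 3.97% ± 1.45, group 2 took 2.42% ± 0.606 and group 1 took 2.26% ± 0.464. By cluster the shares were 46.1% ± 6.39 for HoxB, 37.9% ± 7.23 for HoxC, 14.7% ± 1.74 for HoxD and 1.38% ± 0.292 for HoxA. By group, HoxB and HoxC took 49.5% and 33.2% in intact males, 45% and 37.5% in GDX males, 42.7% and 42.3% in intact females, and 47.5% and 37.6% in OVX females. In intact males, unlike the other groups of rats, the mean share of paralog group 5 (9.89% ± 2.32) was above that of group 7 (9.68% ± 1.58). By rat this order did not follow the groups. It was reversed in intact males 3 (7.78% and 8.42%) and 6 (7.21% and 7.75%). It was present in GDX male 1 (9.19% and 8.63%) and intact female 3 (8.84% and 6.76%). These are shares of counts, which grow with the length of a transcript, so they do not rank the genes by number of transcripts. In intact males the share of group 8 ran from 25.8% to 45.1% and that of cluster C from 20.3% to 46.3%, ranges that contained those of the 6 intact females for group 8, at 41.4% to 45%, and for cluster C, at 38.8% to 45.9%.

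HoxA was the cluster with almost no counts. Its 11 symbols held 964 counts, and 767 of these belonged to Hoxa6, the HoxA gene that reached 1 CPM in all 22 libraries, with a range of 1.66 to 3.6 CPM. Hoxa7 had 107 counts, 21 of them in GDX male 5, and Hoxa4 had 60 on its better covered entry, 20 of them in intact female 6. Hoxa5, whose protein is needed by phrenic motor neurons, had no count in any library, nor had Hoxa9, and both stand on 1 entry, as do 7 of the 11 HoxA symbols, 4 of them without a count. Where 1 symbol stands on several overlapping or repeated gene models, a read that falls on more than 1 of them may be discarded, and the settings for overlaps and multiple matches are not given in the sources used here. Hoxa3, with 1 count, is also uncertain, because in the RefSeq annotation its start lies between those of Hoxa6 and Hoxa7. The HoxA values are therefore counts of reads assigned, and a low value there does not show that the gene is silent.

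The promoters of the neighboring genes Hoxa6 and Hoxa7 are printed because Hoxa6 was detected in every library and Hoxa7 was near the limit of detection. They and the promoters printed further on run from 250 bases before to 50 bases after the gene start in RefSeq on assembly GRCr8, and capitals mark CpG dinucleotides. Promoter entries were found for 20 of the 39 symbols, 21 entries in all. The Hoxa6 promoter lies at chr4:82639414-82639713 on the minus strand and holds 30 CpG dinucleotides. The Hoxa7 promoter lies at chr4:82648192-82648491 on the minus strand and holds 29.
Hoxa6: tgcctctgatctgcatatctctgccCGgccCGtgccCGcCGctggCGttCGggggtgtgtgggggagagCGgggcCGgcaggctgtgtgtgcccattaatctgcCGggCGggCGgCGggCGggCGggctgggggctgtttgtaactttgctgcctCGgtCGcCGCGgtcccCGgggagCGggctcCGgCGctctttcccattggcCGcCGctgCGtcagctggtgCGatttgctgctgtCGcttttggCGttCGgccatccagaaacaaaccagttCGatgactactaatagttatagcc
Hoxa7: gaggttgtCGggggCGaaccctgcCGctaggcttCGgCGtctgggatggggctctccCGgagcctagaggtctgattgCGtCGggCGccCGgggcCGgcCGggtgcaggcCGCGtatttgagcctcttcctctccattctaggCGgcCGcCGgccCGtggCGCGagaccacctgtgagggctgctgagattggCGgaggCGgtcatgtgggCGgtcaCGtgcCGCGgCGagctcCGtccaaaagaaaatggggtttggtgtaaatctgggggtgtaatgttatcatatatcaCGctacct
CpG content did not separate the pair. The 21 Hox promoters had a median of 22 CpG dinucleotides and 62.3% G and C, against 7 and 51.7% over all 33469 promoters of the RefSeq table.

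4 motifs were searched on both strands of the same windows. TGATTNAT, bound by Hox proteins together with Pbx, was in 2 of 21 Hox promoters (Hoxa2 and Hoxd11) and in 3.18% of all promoters. TTTATG, bound by caudal-type and posterior Hox proteins, was in 2 (Hoxa9 and Hoxd4) and in 12.7% of all. TAATTA, the common homeodomain core, was in 1 (Hoxd11) and in 5.36% of all. The direct repeat of AGGTCA with 5 bases between the copies, bound by retinoic acid receptors, was in none and in 0.00896% of all. A match is a description of the letters and was not tested as a binding site.

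The clusters also carry microRNA genes, which are printed because they lie between the members and repress Hox transcripts. Mature sequences are from RefSeq on GRCr8 with the seed, bases 2 to 8, in capitals. The miR-10 genes stand beside Hoxb4 (chr10:81779730-81779752, plus strand) and Hoxd4 (chr3:80035886-80035907, plus strand).
rno-miR-10a-5p: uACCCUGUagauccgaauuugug
rno-miR-10b-5p: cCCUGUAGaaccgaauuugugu
The entry for miR-10b-5p starts 2 bases later along the shared sequence, so the letters in its seed position differ from those of miR-10a-5p. The miR-196 genes stand beside the group 9 genes of HoxC (chr7:135988900-135988921, plus strand), HoxA (chr4:82661149-82661170, minus strand) and HoxB (chr10:81727561-81727582, plus strand), and share 1 seed.
rno-miR-196a-5p: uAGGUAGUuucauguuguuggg
rno-miR-196b-5p: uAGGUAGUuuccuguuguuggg
rno-miR-196c-5p: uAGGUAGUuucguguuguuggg
In the count table the microRNA genes had 136 counts for Mir10b over 21 libraries, 27 for Mir10a, 3 for Mir196c and 0 for Mir196a and Mir196b, and Mir615, next to Hoxc5, had 10. Libraries of long RNA fragments do not measure mature microRNAs, so these counts are not levels of the mature forms.

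Of the 39 symbols, 19 passed the filter on low counts in every comparison, namely Hoxa6, the HoxB genes 2 to 9, Hoxc4, Hoxc5, Hoxc6, Hoxc8, Hoxc9, Hoxd1, Hoxd3, Hoxd4, Hoxd8 and Hoxd9. The other 20 symbols enter no test. In tissue of many cell types a lower level can come from fewer cells of a type or from less RNA per cell, and these cannot be told apart. The account that follows goes by paralog group, from the genes of the hindbrain to those of the thoracic cord, and then by comparison.

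In the anterior groups 1 to 3 the genes with the most counts were Hoxd1 with 1515, Hoxb2 with 1657 and Hoxb3 with 2072. Hoxb1, which in the embryo marks a hindbrain segment, had 81 counts in all. Hoxd1, a gene used by sensory neurons in the mouse, was at 4.09, 3.54, 5.13, 3.78 and 5.12 CPM in intact males 1, 2, 3, 5 and 6, and at 5.36, 6.84, 5.67, 5.49 and 4.83 in GDX males 1, 2, 4, 5 and 6. Its lowest, median and highest values were 3.27, 3.78 and 5.19 CPM in intact females and 3.51, 4.42 and 5.11 in OVX females. All 5 GDX males lay above the intact male median and 4 above the highest intact male, and the ranges overlapped through GDX male 6. Hoxb2, a gene of hindbrain segments, was at 5.57, 6.49, 4.68, 7.49 and 4.33 CPM in the same intact males and 4.22, 4.4, 3.78, 4.36 and 5.02 in the GDX males. All 5 GDX males lay below the intact male median, and 2 lay below the lowest intact male.

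In group 4, whose genes begin at the border of hindbrain and cord, Hoxd4 had the most counts with 4395. Across all rats Hoxd4 ran from 10.9 to 16.6 CPM. Hoxb4 ran from 5.91 to 9.68 CPM and Hoxc4 from 9.85 to 15.8 CPM. Hoxc4 was at 14, 15.8, 12.4, 14.5 and 10.4 CPM in intact males 1, 2, 3, 5 and 6, and at 14.7, 11, 10.5, 9.85 and 10.3 in GDX males 1, 2, 4, 5 and 6. GDX male 1 lay within the intact range and apart from the other 4 GDX males.

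In group 5, the group of phrenic motor neuron genes, Hoxb5 had 3177 counts and Hoxc5 had 2582, against 0 for Hoxa5. Hoxc5, needed together with Hoxa5 for phrenic motor neurons, was at 7.05, 10.2, 9.28, 9.04 and 8.6 CPM in the intact males and 6.3, 8.69, 7.16, 6.55 and 6.46 in the GDX males, in the same order of numbers. All 5 GDX males lay below the intact median and 3 below the lowest intact male. In females Hoxc5 had a lowest, median and highest value of 7, 7.93 and 9.07 CPM in intact rats and 6.57, 7.48 and 9.04 in OVX rats, so those groups overlapped almost fully.

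In groups 6 and 7, genes of forelimb levels, Hoxc6 had 4769 counts and Hoxb7 6163. Hoxc6 marks motor neurons of the limb column and was at 15.4, 11.1, 15.2, 9.04 and 14.8 CPM in intact males 1, 2, 3, 5 and 6. Males 5 and 2 were the lowest of all 22 rats, whose other values ran up to 18.1 CPM. Hoxb6 ran from 10.2 to 17 CPM and Hoxb7 from 14.3 to 22.8 CPM over all rats.

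In group 8 the 3 genes behaved differently from rat to rat. Hoxc8, needed by motor pools of the forelimb, had the most counts of any member with 14860. It was at 19.6, 5.31, 63, 3.96 and 65.1 CPM in intact males 1, 2, 3, 5 and 6, and at 20.7, 41.8, 55.9, 49.4 and 48 in GDX males 1, 2, 4, 5 and 6. Intact females had a lowest, median and highest value of 49.7, 56.5 and 66.8 CPM, and OVX females of 34.4, 47.9 and 52.6. Intact males 2 and 5 were thus far below every other rat, intact male 1 and GDX male 1 formed an intermediate level, and the other 18 rats stood at 34.4 CPM or more. Intact male 2 had 72 counts of Hoxc8, intact male 5 had 64 and intact male 6 had 991.

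Hoxb8, used in dorsal horn circuits and in a lineage of microglia, did not share these low values. It was at 34.7, 35.5, 31.4, 39.6 and 27.3 CPM in intact males 1, 2, 3, 5 and 6. Its range was 23.9 to 36.7 CPM in the GDX group, 27.5 to 41.2 in the intact females and 28.7 to 56.6 in the OVX group, all of which overlapped. The ratio of Hoxc8 to Hoxb8, compared between rats and not between genes, was 0.1 in intact male 5, 0.15 in intact male 2, 0.563 in GDX male 1 and 0.565 in intact male 1, and between 0.892 and 2.38 in the other 18 rats. Hoxd8 ran from 5.71 to 9.11 CPM over all rats and had the smallest SD of log2 CPM of the 19 members, 0.16.

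Group 9, the first group of the thoracic cord, held 4 genes of which Hoxa9 had no count. Hoxc9, which gives thoracic motor columns their identity and represses forelimb Hox genes, was at 1.2, 0.0738, 3.85, 0.0619 and 2.56 CPM in intact males 1, 2, 3, 5 and 6. These values rest on 17, 1, 51, 1 and 39 counts, so males 2 and 5 were below the level that 3 counts correspond to. GDX males 1, 2, 4, 5 and 6 were at 0.268, 1.51, 2.57, 2.25 and 2.48 CPM, the first on 4 counts. Intact females had a lowest, median and highest value of 2.17, 2.65 and 3.59 CPM, and OVX females of 0.858, 1.81 and 3.54. The 3 lowest rats, intact males 5 and 2 and GDX male 1, were among the 4 lowest for Hoxc8.

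Hoxd9, the HoxD gene of this group, was at 0.564, 0.517, 1.74, 0.495 and 2.43 CPM in intact males 1, 2, 3, 5 and 6, and ran from 1.1 to 2.11 in the GDX group, from 0.677 to 2.03 in the intact females and from 0.936 to 1.96 in the OVX group. Intact males 5, 2 and 1 were its 3 lowest rats. Hoxb9, with 1757 counts, was at 1.69, 1.4, 4.15, 1.8 and 4.01 CPM in the same intact males and 2.68, 6.43, 5.74, 4.57 and 4.63 in GDX males 1, 2, 4, 5 and 6. Intact females had a lowest, median and highest Hoxb9 value of 3.48, 4.32 and 11.3 CPM, and OVX females of 4.68, 5.38 and 13.2. The 3 lowest rats for Hoxb9 were again intact males 2, 1 and 5, and intact males 3 and 6 fell within the range of the females.

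Intact males 2 and 5 were high for several members of groups 2 to 6 but not for every anterior member. In rank order of 22 rats from lowest to highest, they stood at 21 and 22 for Hoxb2, 20 and 21 for Hoxb5, 22 and 19 for Hoxc4 and 22 and 19 for Hoxc5. They stood at 21 and 18 for Hoxb6 and at 18 and 14 for Hoxb7. The ranks were 21 and 8 for Hoxd3, 19 and 11 for Hoxb3 and 4 and 6 for Hoxd1. For Hoxc6, Hoxc8, Hoxc9 and Hoxd9 they stood at 2 and 1. They are also the 2 intact males of the short fragment class, so in intact males these low values and the class cannot be told apart. The short-class intact females 1 and 4 had 58.4 and 49.7 CPM of Hoxc8, against 54.6 to 66.8 in the long class, and all 11 gonadectomized rats of the short class had 20.7 CPM or more. Intact male 1 is of the long class.

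**Figure D2:**
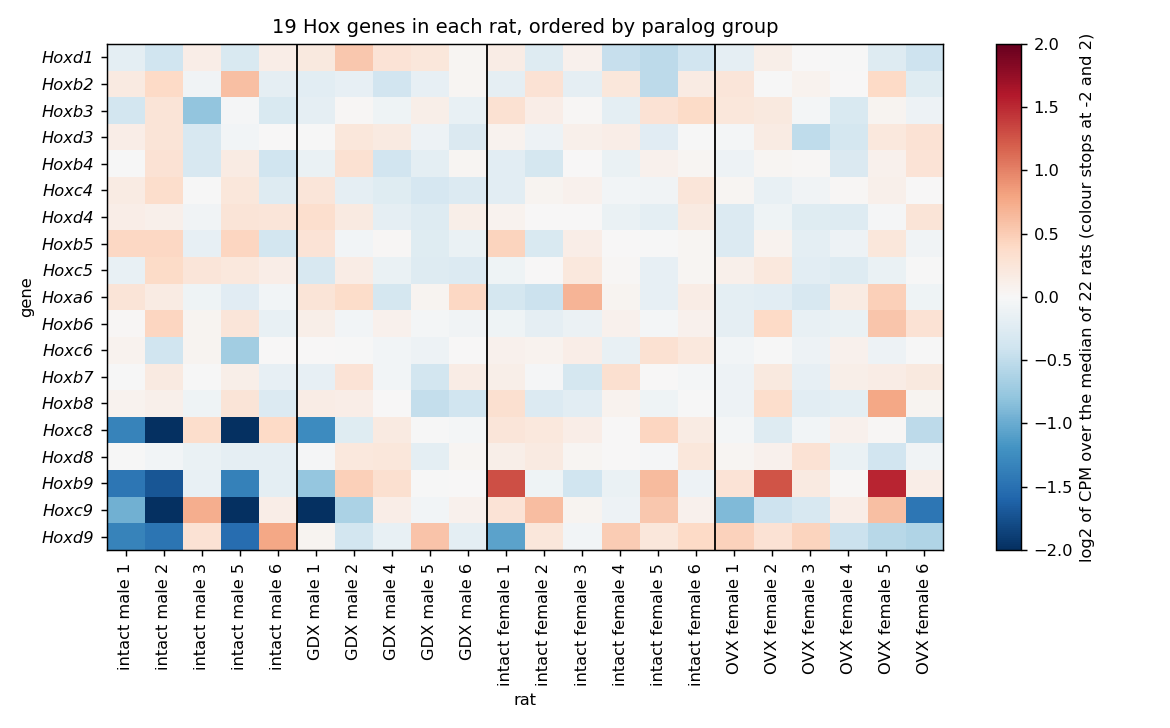
Level of each of the 19 tested members, in paralog order, in each of the 22 rats, given as the log2 of CPM over the median of the 22 rats, with colors ending at -2 and 2. Intact males 2 and 5 are low for Hoxc8 (5.31 and 3.96 CPM) and Hoxc9 (0.0738 and 0.0619 CPM) and high for Hoxb2 and Hoxb5.

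**Figure D3:**
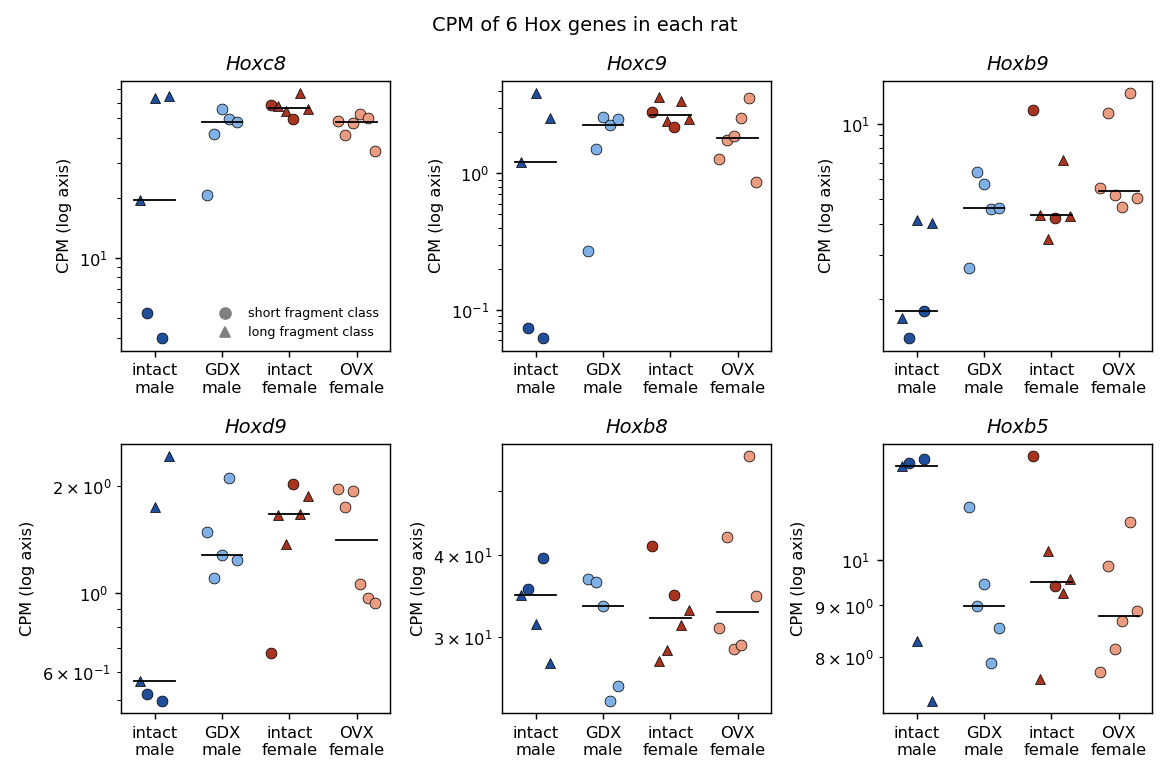
CPM of 6 members in each rat by group, on a log axis, with 1 point per rat (circles for the short and triangles for the long fragment class) and a line at the group median. Hoxc8, Hoxc9 and Hoxd9 spread widely among intact males, whereas the values of Hoxb8 run from 23.9 to 56.6 CPM over all rats.

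Over all 22 rats the SD of log2 CPM was 1.25 for Hoxc9, 1.08 for Hoxc8, 0.79 for Hoxb9 and 0.61 for Hoxd9. For the other 15 tested members it ran from 0.16 for Hoxd8 to 0.29 for Hoxa6 with a median of 0.21, against a median of 0.17 (log2) over all 15562 genes that passed the filter in the 4 groups. The highest value was 62.1 times the lowest for Hoxc9, whose lowest, 0.0619 CPM, rests on 1 count (95% Poisson interval 0.00157 to 0.345 CPM), 16.9 times for Hoxc8, 9.41 times for Hoxb9 and 4.9 times for Hoxd9. Among 2415 genes within 0.5 log2 of the mean level of Hoxc8, 5 (0.207%) had an SD as large. The same share was 1.41% for Hoxc9, 2.6% for Hoxb8, 3.05% for Hoxb9 and 13.5% for Hoxd9, so the SD of Hoxd9 was not rare for its low level and that of Hoxb8 was about as rare as that of Hoxb9. Hoxd8, next to Hoxd9 on the chromosome, had a lower SD than every other tested member. Among genes of like level 83.5% had an SD as large as that of Hoxd8, so its SD was not unusual for its level.

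The promoters of these chromosomal neighbors are printed for that contrast in SD, with CpG dinucleotides again in capitals. The Hoxd8 promoter, at chr3:80014973-80015272 on the plus strand, holds 49 CpG dinucleotides, the most of the 21 Hox entries. The Hoxd9 promoter, at chr3:80007756-80008055 on the plus strand, holds 27.
Hoxd8: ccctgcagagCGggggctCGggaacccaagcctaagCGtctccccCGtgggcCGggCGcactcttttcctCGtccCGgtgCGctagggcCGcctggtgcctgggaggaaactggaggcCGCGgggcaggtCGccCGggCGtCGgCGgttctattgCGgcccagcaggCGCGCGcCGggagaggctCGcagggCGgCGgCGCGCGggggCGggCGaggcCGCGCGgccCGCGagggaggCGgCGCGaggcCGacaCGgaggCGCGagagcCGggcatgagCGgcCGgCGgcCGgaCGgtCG
Hoxd9: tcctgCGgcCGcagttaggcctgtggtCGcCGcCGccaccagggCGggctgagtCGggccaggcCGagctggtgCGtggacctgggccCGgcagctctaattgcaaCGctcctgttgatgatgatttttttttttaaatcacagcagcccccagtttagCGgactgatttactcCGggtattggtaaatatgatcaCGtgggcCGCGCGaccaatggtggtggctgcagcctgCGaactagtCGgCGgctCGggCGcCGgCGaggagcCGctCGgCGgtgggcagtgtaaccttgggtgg
Promoter entries for Hoxc8, Hoxc9 and Hoxb9 were not used here.

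The effect of gonadectomy in males was tested with edgeR's quasi-likelihood test with Benjamini-Hochberg adjustment over all genes tested, and a gene was called at an adjusted p under 0.1. Of 14931 genes 1995 were called (13.4%), and of the 19 members 1 was called. The members' share was below that of all genes, but it rests on 1 call and the difference was not tested. The called member was Hoxb9, which was 1.85-fold higher in GDX males (log2 fold change 0.88, SE 0.308, adjusted p = 0.093), with all 5 GDX males above the intact median and 4 above the highest intact male. The call depended on single rats. It was lost without GDX male 2 (log2 fold change 0.75, adjusted p = 0.181), 4 (0.81, 0.179), 5 (0.90, 0.15) or 6 (0.90, 0.139) and without intact male 1 (0.77 on the log2 scale, 0.197), 2 (0.73, 0.189) or 5 (0.77, 0.188), and with all 22 rats in 1 fit the adjusted p was 0.144. Without both intact males 2 and 5, a comparison chosen after seeing the data, the log2 fold change was 0.56 with an adjusted p of 0.372. Intact males 1, 2 and 5 are the rats with the lowest Hoxb9.

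The members with the next smallest p in males did not pass. Hoxc5 had a log2 fold change of -0.33 (SE 0.124, edgeR adjusted p = 0.119), and it passed without GDX male 2 (-0.42, adjusted p = 0.0508) or intact male 1 (-0.40, adjusted p = 0.0734) and with all 22 rats in 1 fit (-0.33, adjusted p = 0.0681). In each of these 3 fits Hoxc5, and not Hoxb9, was the 1 called member. Hoxd1 had 0.38 (SE 0.151, edgeR adjusted p = 0.14). Hoxb2 had -0.40 (SE 0.164, edgeR adjusted p = 0.155) and passed without intact male 6 (-0.48, adjusted p = 0.0896), and Hoxc4 had -0.25 (SE 0.124, edgeR adjusted p = 0.231) and passed without GDX male 1 (-0.36, adjusted p = 0.0533). The count of called members thus ran from 0, without GDX male 4, 5 or 6 or intact male 2 or 5, to 2, without GDX male 1 or intact male 6. For Hoxc8 the difference was 0.46 with an SE of 0.546 (edgeR adjusted p = 0.659), smaller than its error, and for Hoxc9 it was 0.24 with an SE of 0.69 (edgeR adjusted p = 0.873). The sign for Hoxc9 turned without intact male 2 (-0.06) or intact male 5 (-0.09), and without both rats the values were -0.19 for Hoxc8 and -0.48 for Hoxc9 on the log2 scale.

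Of the 19 members 10 were higher and 9 lower in GDX males, with a median log2 fold change of 0.00 against 0.00 over all genes. At an unadjusted p under 0.05 there were 4 members, Hoxb2, Hoxb9, Hoxc5 and Hoxd1, against 23.8% of all genes, and DESeq2 called 1, Hoxb9, against 14% of all genes. No member had GDX males and intact males that did not overlap, a property of 7.17% of all genes tested. When fragment class was a term of the fit, or when only the short class was used with intact males 2 and 5 against the 5 GDX males, 5 members were called (Hoxb2, Hoxb9, Hoxc6, Hoxc8 and Hoxc9), against 5.33% of all genes in the former fit and 2.83% in the latter. In that short-class comparison Hoxc8 had a log2 fold change of 3.23 (edgeR adjusted p = 0.0194), and it sets the 2 rats with the lowest Hoxc8 against the GDX males.

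**Figure D4:**
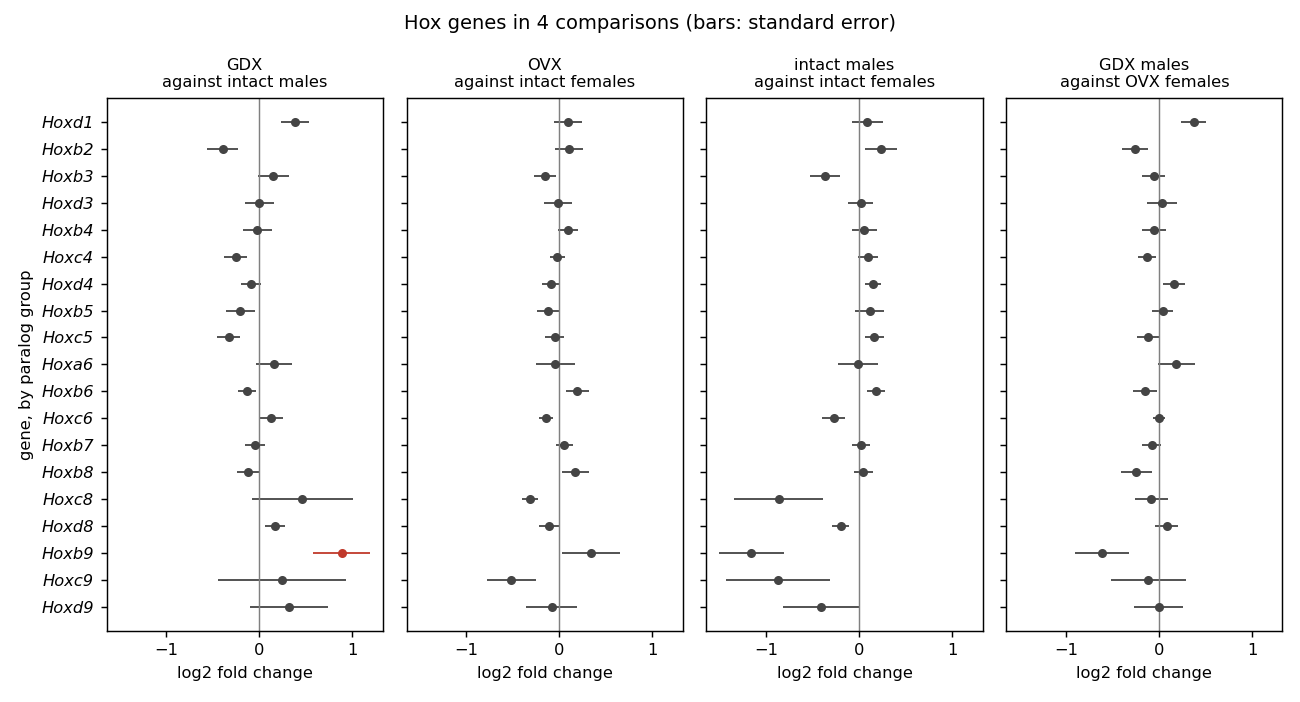
Log2 fold change with its standard error for the 19 tested members in 4 comparisons, members in paralog order, with red marking a call at an edgeR adjusted p under 0.1. Hoxb9 in GDX against intact males (0.88) is the called member.

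In females the effect of ovariectomy was called for 5 of 14910 genes (0.0335%) by edgeR and for 0 of the 19 members, with 1 member at an unadjusted p under 0.05, against 10.2% of all genes, and 1 called by DESeq2. Both were Hoxc8, which had a log2 fold change of -0.32 (SE 0.0873, edgeR adjusted p = 0.233; DESeq2 adjusted p = 0.0595, among 164 genes, or 1.1%, that DESeq2 called). All 6 OVX females lay below the intact median for Hoxc8 and 4 lay below the lowest intact female. Its neighbors in the cluster had values in the same direction, -0.52 (SE 0.263) for Hoxc9 with 4 of 6 OVX females below the lowest intact female, and -0.14 (SE 0.0731) for Hoxc6 with 6 of 6 below the intact median and none below the lowest. Neither passed (edgeR adjusted p = 0.532 for Hoxc9 and 0.533 for Hoxc6). With fragment class as a term the values were -0.24 for Hoxc8, -0.35 for Hoxc9 and -0.01 for Hoxc6 on the log2 scale (edgeR adjusted p = 0.721, 0.879 and 0.993), so the value of Hoxc6 nearly vanished. Hoxb6 had 0.19 (SE 0.123) and Hoxb3 -0.16 (SE 0.121) on the log2 scale, and Hoxb9 had 0.34 (SE 0.311). Motor neuron markers also had lower values in OVX females, with a median log2 fold change of -0.31 over 12 genes, 6 of them at an unadjusted p under 0.05, 0 called by edgeR and 1 by DESeq2.

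Over the 19 members 7 were higher and 12 lower in OVX females, with a median log2 fold change of -0.04 against 0.00 over all genes. No member had OVX and intact females that did not overlap, against 0.516% of all genes. Hoxc8 ran from 34.4 to 66.8 CPM over the 12 females, against 3.96 to 65.1 over the 5 intact males.

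Whether the response differed between the sexes was tested as the interaction of sex and gonadectomy over all 22 rats. By edgeR 18 of 15562 genes were called (0.116%) and 0 of the 19 members, with 1 member at an unadjusted p under 0.05, against 11.6% of all genes, and 0 called by DESeq2. That member was Hoxb2, with an interaction of -0.49 (log2, SE 0.223, edgeR adjusted p = 0.392), where a negative value means a lower response in males. For Hoxb9 the interaction was 0.55 (SE 0.49, edgeR adjusted p = 0.719) and for Hoxc8 0.78 (SE 0.571, edgeR adjusted p = 0.634). Hoxc8 was called for the interaction in the short class alone, as were 0.0311% of all genes, where the intact males are again numbers 2 and 5. The Hoxb9 call in males was therefore not shown to differ from the value in females.

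Intact males were compared with intact females to describe the sex difference with gonads present. By edgeR 599 of 14937 genes were called (4.01%) and 0 of the 19 members, with 4 at an unadjusted p under 0.05, against 15.5% of all genes, and 0 called by DESeq2. Hoxb9 came nearest with a log2 fold change of -1.16 (SE 0.349, edgeR adjusted p = 0.107), and all 5 intact males lay below the female median and 3 below the lowest intact female. It passed without intact male 3 (-1.38, adjusted p = 0.072), intact male 6 (-1.37, adjusted p = 0.0848) or intact female 3 (-1.27, adjusted p = 0.0931), each giving 1 called member, and also with no filter on low counts (adjusted p = 0.0757) or with all 22 rats in 1 fit (adjusted p = 0.0947). Hoxb3 had -0.37 (SE 0.164), Hoxd8 -0.20 (SE 0.0898) and Hoxc6 -0.28 (SE 0.125) on the log2 scale, with edgeR adjusted p of 0.287, 0.295 and 0.303. Hoxc8 at -0.87 (SE 0.481) and Hoxc9 at -0.88 (SE 0.557) had larger differences with larger errors. In the short class alone, which sets intact males 2 and 5 against intact females 1 and 4, edgeR called both, Hoxc8 at -3.56 (adjusted p = 4.71e-05) and Hoxc9 at -5.06 (adjusted p = 0.03), against 0.225% of all genes, so those values describe the same 2 males.

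For Hoxd8 4 of 5 intact males lay below the lowest intact female, but intact male 1 at 7.4 CPM lay above it, at 7.34. The median over members was 0.02 against 0.00 over all genes (log2). No member had intact males and intact females that did not overlap, against 2.73% of all genes.

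GDX males were compared with OVX females, where all 11 libraries were of the short class. By edgeR 35 of 15084 genes were called (0.232%) and 0 of the 19 members, with 2 at an unadjusted p under 0.05, against 9.37% of all genes, and 0 called by DESeq2. Hoxd1 had the smallest p with a log2 fold change of 0.37 (SE 0.134, edgeR adjusted p = 0.391), with 5 of 5 GDX males above the OVX median and 4 above the highest OVX female. Hoxb9 had -0.61 (SE 0.287, edgeR adjusted p = 0.528), with 3 of 5 GDX males below the lowest OVX female, and Hoxb2 had -0.26 (SE 0.136). The other differences were small, with Hoxb8 at -0.24 and Hoxd4 at 0.16 next by p. No member had GDX males and OVX females that did not overlap, against 1.32% of all genes.

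The 2 fragment classes were set against each other within the 11 intact rats with sex as a term. By edgeR 0 of 15723 genes were called (0%) and 0 of the 19 members, with 7 members at an unadjusted p under 0.05, against 7.75% of all genes, and 1 member, Hoxb8, called by DESeq2, which called 54 of all genes (0.343%). Without a filter on low counts edgeR called 4 of 28 members (Hoxb8, Hoxc6, Hoxc8 and Hoxc9) and 0.891% of all genes. Hoxb8 had a log2 difference of -0.31, long minus short (SE 0.0733, edgeR adjusted p = 0.318), Hoxb7 had -0.26 (SE 0.0766), Hoxb5 -0.35 (SE 0.135) and Hoxb6 -0.20 (SE 0.088). In the other direction stood Hoxc6 at 0.37 (SE 0.0934), Hoxc8 at 1.12 (SE 0.452) and Hoxc9 at 1.31 (SE 0.544). The 7 were therefore the middle HoxB genes, with higher values in the short class, and the HoxC genes that were low in intact males 2 and 5, with higher values in the long class. Without those males the difference was 0.11 for Hoxc8 and 0.25 for Hoxc9 on the log2 scale. Motor neuron markers also had higher values in the long class, with a median log2 difference of 0.31 over 13 genes, 8 of them at an unadjusted p under 0.05, 0 called by edgeR and 2 by DESeq2. Schwann cell genes had a median of 0.535 (5 of 5 higher), ependymal genes of -0.314 (0 of 4 higher) and dorsal horn genes of -0.435 (1 of 2 higher). Of these 1, 0 and 1 were at an unadjusted p under 0.05, with 0 called by edgeR or DESeq2. The part of cell makeup in the class difference was not tested.

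How members varied together among rats was described with correlations of log2 CPM after subtracting the mean of each group, with p from 100000 permutations of rats within groups and Benjamini-Hochberg adjustment over 171 pairs. Because intact males 2 and 5 stand apart for several genes, values are also given for the other 20 rats. In all 22 rats 6 pairs had an adjusted permutation p under 0.1 and in the 20 rats 3 did. Over the 20 rats Hoxc8 and Hoxc9, adjacent genes, had r = 0.837 (permutation p = 0.00011, adjusted 0.0094) and rho = 0.815 (permutation p = 0.00018, adjusted 0.0154). Within classes r was 0.915 in the short and 0.882 in the long libraries, computed over all rats.

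A second set of relations joined Hoxb5 and Hoxb6 with Hoxb8, whereas no pair with Hoxb7 had an adjusted permutation p under 0.1. Hoxb5 and Hoxb8 had r = 0.75 (permutation p = 2e-05, adjusted 0.00171) and rho = 0.8 (permutation p = 1.5e-05, adjusted 0.00256) over 22 rats, and r = 0.703 without the 2 rats farthest from the median of Hoxb5. In the short class r was 0.821 and in the long class 0.781. Hoxb6 and Hoxb8 had r = 0.756 (permutation p = 0.00018, adjusted 0.0103) and rho = 0.685 (permutation p = 0.000625, adjusted 0.0356), with r = 0.688 without the 2 farthest rats, 0.74 in the short and 0.913 in the long class. Both pairs remained past the level in the 20 rats, with r = 0.744 and 0.772, although rho for Hoxb6 and Hoxb8 then had an adjusted permutation p of 0.122.

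The other 3 pairs were lost without intact males 2 and 5. Hoxb5 and Hoxd9 had r = -0.809 (permutation p = 0.00115, adjusted 0.0494) and rho = -0.757 (permutation p = 0.00107, adjusted 0.046), and in the 20 rats r = -0.748 with an adjusted permutation p of 0.169. Hoxb9 and Hoxc4 had r = -0.653 (permutation p = 0.00202, adjusted 0.0577) and rho = -0.669 (permutation p = 0.00306, adjusted 0.105), and in the 20 rats r = -0.58 with an adjusted permutation p of 0.266. Hoxb5 and Hoxb6 had r = 0.616 (permutation p = 0.00171, adjusted 0.0577) and rho = 0.609 (permutation p = 0.00396, adjusted 0.113), and in the 20 rats r = 0.527 with an adjusted permutation p of 0.169. The 3 positive pairs that remained each lay within 1 cluster.

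Over all 48 pairs within a cluster the median r was 0.227, against 0.00808 for 123 pairs from different clusters, and over the 20 rats these medians were 0.0713 and 0.0341. Pairs at a distance of 0 or 1 paralog groups had a median r of 0.19 and pairs at 4 or more groups of -0.0887, which became 0.103 and 0.00412 in the 20 rats. The difference by cluster and by distance therefore rested largely on intact males 2 and 5. The pairs share rats and libraries, and the medians carry no test.

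**Figure D5:**
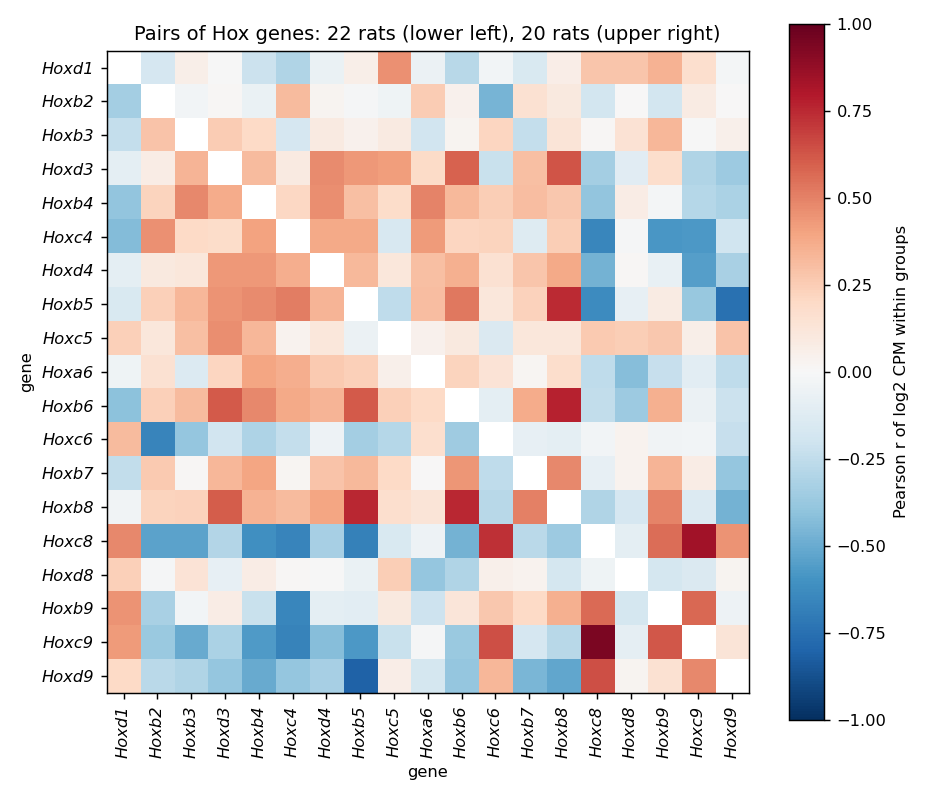
Pearson r of log2 CPM between the 19 tested members after subtracting group means, with all 22 rats on one side of the diagonal and the 20 rats other than intact males 2 and 5 on the other. The block of Hoxb5, Hoxb6 and Hoxb8 and the pair Hoxc8 and Hoxc9 are seen on both sides.

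Members were then set against the mean level of each of 10 lists of cell type markers, a family of 190 relations added after seeing the data, of which 3 had an adjusted permutation p under 0.1. Hoxd4 was lower where the mean was higher of the 4 tested Schwann cell genes, whose most abundant gene was Pmp22, with r = -0.703 (permutation p = 4e-05, adjusted 0.0076) and rho = -0.757 (permutation p = 0.00024, adjusted 0.0389). Without the 2 rats farthest from the median of the list mean, left out in the same way for the lists that follow, r was -0.693. It was -0.794 in the short and -0.76 in the long class. The mean of the 3 tested dorsal horn genes was higher where Hoxb8 was higher, with r = 0.767 (permutation p = 0.00026, adjusted 0.0247) and rho = 0.677 (permutation p = 0.00299, adjusted 0.114). Without the 2 farthest rats r was 0.616, and it was 0.755 in the short and 0.518 in the long class. By gene r was 0.707 for Lmx1b and 0.646 for Skor2, which have 131 and 240 counts in all, and -0.0706 for Gpr83, which has the most, so the relation did not hold for Gpr83.

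The 2 rats with the highest Hoxb8 in females, OVX female 5 at 56.6 CPM and OVX female 2 at 42.5, had summed dorsal horn markers of 9.17 and 5.49 CPM, against 4.62 to 5.66 in the other OVX females. Such sums are CPM over all 7 listed genes, with Gpr83 the most abundant. They are a different measure from the mean log2 level of the 3 tested genes. Intact females 1 and 4, with Hoxb8 at 41.2 and 34.7 CPM, had sums of 7.9 and 7.47, above that of OVX female 2. The other intact females had sums of 4.63 to 6.4 CPM. Hoxd9 was higher where the mean of the 6 astrocyte genes was higher, with r = 0.614 (permutation p = 0.00069, adjusted 0.0437) and rho = 0.666 (permutation p = 0.00041, adjusted 0.0389), r = 0.452 without the 2 farthest rats, and 0.798 and 0.892 in the short and long classes. By gene r ran from -0.453 for Slc1a3 to 0.708 for Slc1a2, with 0.399 for Gfap, the most abundant. No relation with motor neuron, meningeal, endothelial, oligodendrocyte, microglia, ependymal or dorsal root ganglion genes had an adjusted permutation p under 0.1. The part of dissection or cell makeup in these relations was not tested.

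The proteins that act with or on Hox genes were followed as lists. Of 9 cofactors of the TALE class, which bind DNA together with Hox proteins, 0 were called higher and 1 lower in GDX males by edgeR. Among all genes 13.4% were called in that comparison, and the cofactors had a median log2 fold change of -0.01. The called gene was Meis3, which fell by 0.335 on the log2 scale (SE 0.108, edgeR adjusted p = 0.0699). In OVX against intact females edgeR called 0 (0 at an unadjusted p under 0.05 and 0 by DESeq2). In intact males against intact females 1 was called, against 4.01% of all genes. It was Pbx3, higher in males by 0.14 on the log2 scale (SE 0.0393, edgeR adjusted p = 0.0698). Pbx3, the most abundant cofactor, was at 112 ± 3.27 CPM in intact males (SD, n = 5) and 101.5 ± 4.82 in intact females (n = 6).

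Polycomb proteins keep Hox genes silent and Trithorax proteins keep them active. Of 18 Polycomb genes 0 were called higher and 1 lower in GDX males, against 13.4% of all genes called. The called gene was Cbx6, which fell by 0.168 on the log2 scale (SE 0.0474, edgeR adjusted p = 0.0403). It was also the most abundant of the list at 110.4 ± 4.63 CPM in intact males (n = 5). None of 8 Trithorax and demethylase genes was called by edgeR in GDX against intact males or in OVX against intact females, with 0 at an unadjusted p under 0.05 and 0 by DESeq2 in both. Kdm6a, an X-linked H3K27 demethylase, was lower in intact males than in intact females by a log2 fold change of -0.67 (SE 0.0768, edgeR adjusted p = 0.000262) and lower in GDX males than in OVX females by -0.53 (SE 0.0688, edgeR adjusted p = 0.00124). Kmt2a, the most abundant gene of this list, was at 180.7 ± 17.3 CPM in intact males.

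Retinoic acid and Gdf11 set Hox borders in the embryo, the former for anterior and the latter for posterior genes. Of 14 genes of this axis tested in males 5 were called higher in GDX males and 0 lower, against 13.4% of all genes called. The median log2 fold change of the list was 0.16. Among the called genes were Aldh1a2, which makes retinoic acid in meninges, at 1.70 (SE 0.34, edgeR adjusted p = 0.0097), Cyp26b1, which degrades it, at 1.59 (SE 0.32, edgeR adjusted p = 0.00984), the binding protein Crabp2 at 1.53, and the receptor Rarg at 0.34. In intact males against intact females 4 of 15 were called, all lower in males, against 4.01% of all genes called. They were Crabp2 at -1.59, Aldh1a3 at -1.45, Aldh1a2 at -1.28 and Cyp26b1 at -1.18 on the log2 scale. In OVX against intact females edgeR called 0 of 15, with 1 at an unadjusted p under 0.05, 0 by DESeq2 and a median of 0.08. Aldh1a1, the most abundant gene of the list, was at 86.5 ± 11.7 CPM in intact males (n = 5).

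Marker genes of meninges and fibroblasts moved in the same comparisons as the retinoic acid genes. Of 8 tested, 8 were called higher in GDX males (median log2 fold change 1.49) and 6 lower in intact males than in intact females (median -1.23). Of all genes edgeR called 13.4% and 4.01% in these comparisons, and 0.0335% in OVX against intact females. There 0 of the 8 meningeal genes were called by edgeR, with 0 at an unadjusted p under 0.05 and 0 by DESeq2. All 8 were nevertheless higher in OVX females, with a median log2 fold change of 0.285. Summed over the list, with Col1a1 the most abundant gene, intact males were at 121.1 ± 48.1 CPM and GDX males at 370.7 ± 144.3 (SD, n = 5 each), and intact females at 295.3 ± 129 and OVX females at 368.2 ± 72.9 (n = 6 each). By rat the sum was 190.4, 127.9, 134.6, 86.8 and 65.9 CPM in intact males 1, 2, 3, 5 and 6, so males 2 and 5 lay within the range of the other intact males. The summed Schwann cell genes were lowest of all 22 rats in intact male 5 at 65 CPM, intact male 2 at 69.5 and GDX male 1 at 77.5, the 3 rats with the lowest Hoxc9, against 83.5 to 172.2 in the others. Intact males 2 and 5 also had the lowest motor neuron sums of the intact males, 4500.1 and 4696.6 CPM against 5101.9 to 7151.6, and the highest endothelial sums, 141.6 and 135.7 against 100.4 to 119.8. They lay within the ranges of intact females, 4416.1 to 6148.7 CPM for motor neurons and 99.4 to 187.1 for endothelium. Motor neuron sums ran from 4025.4 to 4831.4 CPM in GDX males and from 4031.7 to 5370.4 in OVX females. Endothelial sums ran from 159 to 205.3 CPM in GDX males and from 166.9 to 233.5 in OVX females. These sums carry no test. Among the tested relations with list means, Hoxc9 and the Schwann cell genes had r = 0.5 (permutation p = 0.146, adjusted 0.771). That r was 0.201 without the 2 rats farthest from the median of the list mean. Hoxc8 and the Schwann cell genes had r = 0.415 (permutation p = 0.306, adjusted 0.894). With motor neuron genes r was 0.429 for Hoxc8 and 0.274 for Hoxc9 (adjusted permutation p = 0.771 and 0.897). Endothelial genes had 6 of 6 called higher in GDX males (median 0.52). In OVX females the same 6 were also higher (median 0.49), all at an unadjusted p under 0.05, with 1 called by edgeR and 2 by DESeq2. Schwann cell genes had 2 of 4 called higher in GDX males (median 1.13; 0 by DESeq2) and 3 of 4 lower in intact males than in intact females (median -1.56; 4 by DESeq2). Of the other lists in GDX against intact males, motor neurons had 0 called higher and 2 lower of 12, astrocytes 2 higher of 6, oligodendrocytes 1 higher of 6, microglia 0 of 5 and ependyma 0 of 4 (1 each at an unadjusted p under 0.05 and 1 each by DESeq2), and dorsal root ganglion neurons 0 of 4, dorsal horn neurons 0 of 1 and hindbrain nuclei 0 of 1 (0 by either other count). Of 2 forebrain and midbrain genes tested 1, En1, was called lower. The part of these cell types in the retinoic acid values and in the Hoxb9 call was not tested.

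The genes that flank the clusters were measured as a check on the neighborhood. Of 10 tested 2 were called higher in GDX males, against 13.4% of all genes called in either direction, and the median was 0.08. The called genes were Calcoco1 near HoxC at 1.67 on the log2 scale (SE 0.49, edgeR adjusted p = 0.0484) and Hibadh near HoxA at 0.18 (SE 0.0464, edgeR adjusted p = 0.0254). For Calcoco1 GDX males 4 and 6 were at 11.6 and 14.4 CPM and the other 3 at 2.2 to 3.15, against 1.36 to 2.54 in intact males, and the call was lost without GDX male 4 (1.39 on the log2 scale, adjusted p = 0.126) or 6 (1.18, 0.138). Single females were also high, intact female 2 at 21.8 CPM and OVX females 1, 2 and 5 at 16.9, 19 and 7.89, against 1.11 to 1.86 in the other 8. None was called by edgeR or DESeq2 in OVX against intact females or between the intact sexes, with 1 and 0 genes at an unadjusted p under 0.05. Tax1bp1, beside Hibadh, was the most abundant at 252.8 ± 13.7 CPM in intact males. The Cdx, ParaHox and Evx genes, homeobox relatives of the Hox genes, passed the filter in no comparison, with a summed level of 0.325 ± 0.143 CPM in intact males (n = 5) and 0.574 ± 0.257 in OVX females (n = 6), where Gsx1 had the most counts with 68 in all.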

How the data were processed

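Ventral cervical cord RNA of 22 rats was sequenced, and the authors deposited raw read counts per gene as 1 table. The submitters' processing notes and the study's methods name Trimmomatic 0.33 and Subread, and for alignment TopHat2 2.0.13 (the notes) or Hisat2 (the methods), with assembly Rnor_6.0 and Ensembl release 98; strand, overlap and multi-mapping settings are not given in the sources used here. Sample groups came from the labels, where "Inact" was read as intact.

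Counts were filtered (filterByExpr), scaled (TMM) and tested in R 4.3.3 with edgeR 4.0.16 (limma 3.58.1) quasi-likelihood fits on the whole table, with Benjamini-Hochberg adjustment over all genes tested and calls at an adjusted p under 0.1. Log2 CPM used a prior count of 2. Correlations used 100000 two-sided permutations within groups. The procedure was tested on simulated data, and no values from that test are given here. Replicate numbers were not taken as pairs. Intervals and detection limits cover counting error only. Alternatives tried were an unadjusted p under 0.05, all 22 rats in 1 fit, a prior count of 0.5, scaling by RLE, DESeq2 1.42.0, a filter at 1 CPM or none, a replicate block, fragment class as a term, the short class alone, each rat left out, and, chosen after seeing the data, intact males 2 and 5 left out.

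Named with values were, in each paralog group, the member with the most counts, every called member, the 5 members with the smallest p in each comparison, those of largest and smallest spread, the called genes of the 6 pathway lists (up to 5 per list), and the most abundant gene of each list. The markers named in the tissue check, Hoxb8, Hoxd9 and the HoxA genes were added after their values were seen. The members and lists were chosen with earlier results of these data known. Levels were not divided by gene length. Some genes that this rule names are not reported here.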

Additional observations from a re-analysis of the deposited data

Results flagged for a closer look

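Of 76 combinations of a tested member and a group, 1 held a rat far from the others. In GDX males Hoxc4 was at 14.7 CPM in GDX male 1 against 9.85 to 11 CPM in the other 4, a gap of 0.761 of the whole range. How many such marks chance alone gives was not measured here, so 1 in 76 is not read as more than chance. The same rat had the lowest Hoxc8 of the GDX males, 20.7 CPM. The low Hoxc8 values of intact males 2 and 5 were not marked this way, because the 2 rats lie close together.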

How the results depend on the processing

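Results are grouped by setting. In GDX against intact males the count of called members, 1 as reported, was 4 at an unadjusted p under 0.05, 5 with fragment class as a term, 5 in the short class alone and 0 without intact males 2 and 5, and it ran from 0 to 2 when each rat was left out. It stayed at 1 without GDX male 2, without intact male 1 and with all 22 rats in 1 fit, but the member was then Hoxc5 in place of Hoxb9. In OVX against intact females 0 became 1 by DESeq2 and 1 at an unadjusted p under 0.05. In intact males against intact females 0 became 1 without a filter, 4 at an unadjusted p under 0.05, 1 with all 22 rats in 1 fit and 2 in the short class alone, and ran from 0 to 1 with each rat left out. In GDX males against OVX females 0 became 2 at an unadjusted p under 0.05. For the interaction 0 became 1 at an unadjusted p under 0.05 and 1 in the short class alone. Between the fragment classes 0 became 1 by DESeq2, 4 without a filter (4 of 28 members, against 0.891% of all genes) and 7 at an unadjusted p under 0.05. The count of correlated pairs, 6, was 3 with class also subtracted and 3 without intact males 2 and 5. The cause was not tested.

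5 single values changed sign. In males Hoxc9 ran from -0.0878 (without intact male 5) to 0.882 with each rat left out, was -0.0628 without intact male 2, and without both Hoxc8 was -0.189 and Hoxc9 -0.477 (log2). Hoxb3 in intact males against intact females was 0.0407 in the short class alone. The Hoxb9 value in males stayed positive in its 19 alternatives, from 0.56 to 1.58, and its edgeR or DESeq2 adjusted p ran from 0.0365 to 0.372.

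The replicate block gave 1 called member in GDX against intact males (Hoxb9) and 0 in the other comparisons it was run for. Same-numbered rats had correlations of -0.11 to 0.063, and 1 of 20 correlated best with its own number. These correlations gave no sign of pairing by number, but they cannot show whether same-numbered rats were handled together.

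Depth limits the low members, since 3 counts correspond to 0.167 to 0.241 CPM and Hoxc9 in intact males 2 and 5 rests on 1 count each. With 2 short-class intact males, fragment class and rat cannot be told apart in that sex. HoxA entries that share a symbol can share reads. Shares of counts per coding length were not run, because no protein table was used here.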
